A study of Rattus norvegicus with 10 samples.

Results

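The contractile genes of peritubular smooth muscle are a set of 10 genes whose products build the contractile apparatus of the cells that wrap the seminiferous tubule: Acta2, Actg2, Myh11, Mylk, Tpm2, Cnn1, Tagln, Des, Csrp1 and Flna. They were taken by gene name from the deposited expression files, in which each name occurred once among 32545 genes. They were measured in RNA of round spermatids, haploid germ cells that have completed meiosis, from Brown Norway rats labelled wild type. The aged group held 5 samples from rats of 18 to 20 months, and the young group held 5 samples from rats of 4 to 6 months, all kept under normal conditions with free access to food and water. Germ cells were enriched from the testis by STA-PUT, a sedimentation of the suspended cells by speed of settling. The labels name no animal behind a sample, and p-values here measure only how far the samples vary, which may be technical.

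Peritubular myoid cells are flattened smooth muscle-like cells around each tubule whose contractions move sperm and fluid along. In smooth muscle, calcium-bound calmodulin switches on myosin light chain kinase, the kinase phosphorylates the light chains of myosin, and myosin then pulls on actin filaments that tropomyosin, calponin and transgelin line. Desmin and filamin tie these filaments into the cell, and many of the genes are switched on by serum response factor with myocardin through a DNA element called the CArG box. Round spermatids are germ cells, and smooth muscle genes are not among their defining markers. The libraries carried the transcripts of round spermatids at high levels: the 11 spermatid markers listed here, protamines among them, summed to between 20400 and 26824 FPKM in the aged and between 20368 and 32437 FPKM in the young libraries. FPKM is the number of fragments scaled to gene length and to a size set for each library, so levels can be set side by side between genes. In these files that size was 0.966 to 1.025 times the total of recovered fragments. The libraries held 15992576 to 18203223 fragments in the aged group and 14488222 to 17401744 in the young group.

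Of the members, 8 have a promoter entry in the RefSeq table (build GRCr8); Myh11 and Tagln do not. The CArG box, a run of A and T bases between CC and GG, was sought in the 250 bases before the annotated start, where its sequence is its own reverse complement and 1 strand covers both. No member promoter held an exact box, and 501 of 33469 promoters (1.5%) did. With at most 1 mismatch allowed, 1 of the 8 members, Acta2, held it, against 18.7% of all promoters. Its 2 boxes are shown because Acta2 is the most abundant member; capitals mark the box, and each stretch runs 5′ to 3′ on the minus strand of chromosome 1.
Acta2 distal box, chr1:241172603-241172662, 134 to 125 bases before the start: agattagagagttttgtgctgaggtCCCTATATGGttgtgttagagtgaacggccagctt
Acta2 proximal box, chr1:241172553-241172612, 84 to 75 bases before the start: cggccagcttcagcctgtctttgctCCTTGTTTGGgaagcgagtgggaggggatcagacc
A match describes these letters in this window, and nothing was measured at the promoters here.

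In the aged libraries 9 of the 10 members had a higher mean level than in the young libraries, and Actg2 had a lower one. The ratio of the aged to the young mean was 3.22 for Csrp1, 3.16 for Cnn1, 2.84 for Tpm2, 2.77 for Des, 2.59 for Tagln and 2.53 for Flna. It was smaller for Acta2 (1.77), Mylk (1.38) and Myh11 (1.34), and 0.902 for Actg2. In 8 members every aged library stood above every young library; these were all but Acta2 and Actg2. None passed the test across all genes. The test was limma on log2(FPKM + 1), two-sided, over the 12985 genes that averaged 1 FPKM or more. P-values were adjusted by Benjamini-Hochberg over these genes and called under 0.05. It called 0 genes (0.0%), with a smallest adjusted p of 0.280; 1544 genes (11.9%) had an unadjusted p under 0.05. The voom fit on fragment numbers called 0 genes as well, with 1536 at an unadjusted p under 0.05. All 10 members entered the test, and 9 had a log2 difference above 0, as did 45.5% of all tested genes. These 9 were also higher at an unadjusted p under 0.05, where 5.54% of all tested genes were, and 0 members were lower at that level, where 6.35% were. The groups did not overlap, with the aged group higher, for 8 of 10 members and for 1.36% of all tested genes; with the aged group lower it was 0 members and 1.24% of tested genes. The median log2 difference was 0.92 over the members and -0.02 over all tested genes. Cnn1 averaged under 1 FPKM in young samples and entered the test through its aged values, so it had to differ. Without it, 8 of 9 members were higher at an unadjusted p under 0.05, 7 of 9 did not overlap and the median was 1.01. Without all 320 genes that entered in that way, the shares over the remaining 12665 genes were 4.78% and 1.11%.

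**Figure D1:**
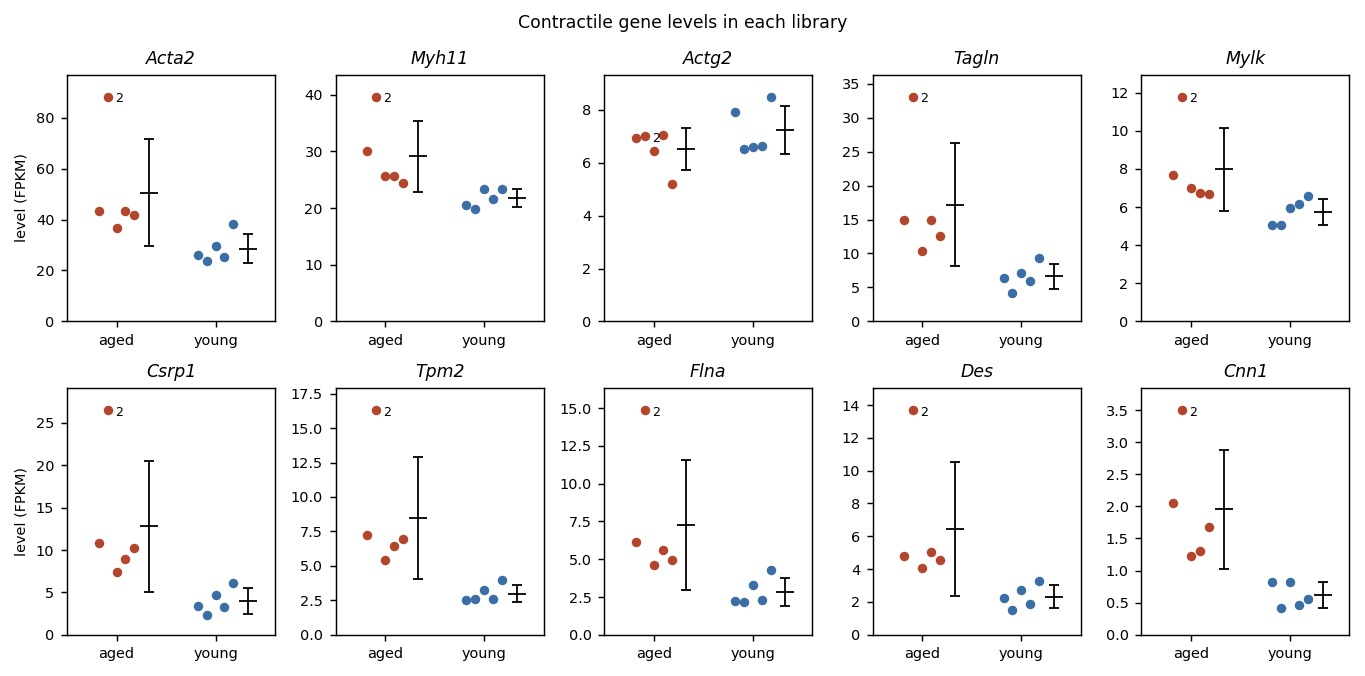
Level in FPKM of each of the 10 contractile genes in the 5 aged libraries (left in each panel) and the 5 young libraries (right); each dot is a library, the 2 marks aged replicate 2, and the bar is the mean with its SD. Aged replicate 2 is the highest library in every panel except Actg2, and the aged and young dots overlap only for Acta2 and Actg2.

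The actins come first, as the track on which myosin pulls. Acta2 encodes alpha smooth muscle actin, the usual marker of peritubular myoid cells (ENSRNOG00000058039, chromosome 1, 252537615 to 252550394, minus strand in the files' coordinates, with no build named). It stood at 43.2, 88.1, 36.6, 43.4 and 41.7 FPKM in aged replicates 1 to 5, and at 26.2, 23.9, 29.6, 25.2 and 38.2 FPKM in young replicates 1 to 5. The groups overlapped through a single pair of libraries, aged replicate 3 and young replicate 5. The means were 50.6 ± 21.1 FPKM in aged and 28.6 ± 5.73 FPKM in young samples (SD, n = 5 each), a log2 difference of 0.74 (SE 0.21, limma adjusted p = 0.319).

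Actg2, gamma smooth muscle actin, is best known from the gut wall (ENSRNOG00000029401, chromosome 4, 115215060 to 115239723, minus strand). It stood at 6.94, 7.002, 6.46, 7.04 and 5.19 FPKM in aged replicates 1 to 5, and at 7.92, 6.52, 6.61, 6.65 and 8.49 FPKM in young replicates 1 to 5. The groups overlapped, and aged replicate 2 was not set apart. The log2 difference was -0.13 (SE 0.10, limma adjusted p = 0.569). Within each library Acta2 minus Actg2 on the log2(FPKM + 1) scale averaged 2.71 ± 0.46 in aged and 1.83 ± 0.19 in young libraries (SD, n = 5 each), and every aged value was above every young one. This pair was chosen after the values were seen and is given as a description, with no test. Fragments that fit both actin genes could be split between them or dropped by the counting, so the level of each is uncertain to that extent. Actg2 also overlaps the gene AC115473.1 on the same strand, so fragments there may be assigned to either gene or dropped.

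Myh11 and Mylk encode the motor and the kinase that switches it on. Myh11, the heavy chain of smooth muscle myosin (ENSRNOG00000057880, chromosome 10, 764421 to 859184, plus strand), stood at 30.1, 39.6, 25.7, 25.7 and 24.4 FPKM in aged replicates 1 to 5. In young replicates 1 to 5 it stood at 20.5, 19.9, 23.4, 21.6 and 23.4 FPKM. The groups did not overlap, but the lowest aged value was only 1.04 times the highest young value. The means were 29.1 ± 6.25 FPKM in aged and 21.8 ± 1.62 FPKM in young samples, a log2 difference of 0.38 (SE 0.12, limma adjusted p = 0.319). Acta2 minus Myh11 on the log2 scale averaged 0.72 ± 0.26 in aged and 0.36 ± 0.19 in young libraries (SD, n = 5 each), and 0.62 in aged libraries without replicate 2. The values of the groups overlapped, and this pair too was chosen after the values were seen and not tested.

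Mylk, myosin light chain kinase, spans 69013050 to 69223158 on chromosome 11, minus strand. It stood at 7.69, 11.8, 7.02, 6.73 and 6.66 FPKM in aged replicates 1 to 5, and at 5.04, 5.07, 5.95, 6.17 and 6.58 FPKM in young replicates 1 to 5. The groups only just failed to overlap, with a lowest aged value 1.01 times the highest young value. The log2 difference was 0.39 (SE 0.14, limma adjusted p = 0.360), and 0.25 without aged replicate 2. Besides its smooth muscle form, Mylk gives rise to a long kinase found in many cell types, and a value per gene does not separate the forms.

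Tpm2, Tagln and Cnn1 encode proteins that line the actin filament. Tpm2, beta tropomyosin, lies along the groove of the filament (ENSRNOG00000016731, chromosome 5, 59016622 to 59025631, minus strand). It stood at 7.23, 16.3, 5.46, 6.43 and 6.93 FPKM in aged replicates 1 to 5, and at 2.50, 2.63, 3.22, 2.60 and 3.96 FPKM in young replicates 1 to 5. The lowest aged library was 1.38 times the highest young library. The log2 difference was 1.16 (SE 0.23, limma adjusted p = 0.319), the 15th smallest p of all tested genes. Without aged replicate 2 its adjusted p was 0.0920, the lowest of any member under any setting run; over all settings it lay between 0.0920 and 0.520.

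Tagln, transgelin or SM22, is an actin-binding protein of early smooth muscle (ENSRNOG00000017628, chromosome 8, 50222896 to 50231357, minus strand). It stood at 14.9, 33.03, 10.4, 14.9 and 12.6 FPKM in aged replicates 1 to 5, and at 6.38, 4.21, 7.15, 5.94 and 9.40 FPKM in young replicates 1 to 5. The groups did not overlap, and the log2 difference was 1.18 (SE 0.27, limma adjusted p = 0.319). Part of it overlaps Sidt2 on the same strand, so fragments there may be assigned to either gene or dropped.

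Cnn1, calponin, restrains the myosin motor on actin and marks fully differentiated smooth muscle (ENSRNOG00000027736, chromosome 8, 23113048 to 23121761, plus strand). It was the least abundant member, at 2.05, 3.50, 1.23, 1.31 and 1.68 FPKM in aged replicates 1 to 5, and at 0.829, 0.417, 0.822, 0.459 and 0.562 FPKM in young replicates 1 to 5. The lowest aged library was 1.48 times the highest young library, the widest gap of the members. These values rest on 32 to 86 fragments in the aged and 11 to 21 fragments in the young libraries. Cnn1 was under 1 FPKM in every young library. The log2 difference was 0.83 (SE 0.18, limma adjusted p = 0.319).

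Des, Csrp1 and Flna encode proteins that anchor and cross-link the filaments. Des, desmin, is the intermediate filament of muscle (ENSRNOG00000019810, chromosome 9, 82556573 to 82564294, plus strand). It stood at 4.83, 13.7, 4.05, 5.03 and 4.57 FPKM in aged replicates 1 to 5, and at 2.26, 1.51, 2.71, 1.90 and 3.25 FPKM in young replicates 1 to 5. Apart from aged replicate 2 the aged libraries lay within 4.05 to 5.03 FPKM. The log2 difference was 1.06 (SE 0.27, limma adjusted p = 0.319).

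Csrp1, a LIM domain protein of smooth muscle that binds the actin cross-linker alpha-actinin (ENSRNOG00000008937, chromosome 13, 52553775 to 52575051, plus strand), had the largest log2 difference of the members. It stood at 10.8, 26.5, 7.44, 8.94 and 10.2 FPKM in aged replicates 1 to 5, and at 3.39, 2.28, 4.75, 3.30 and 6.16 FPKM in young replicates 1 to 5. The groups did not overlap, and the log2 difference was 1.38 (SE 0.30, limma adjusted p = 0.319).

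Flna, filamin A, cross-links actin and ties it to integrins, and is not restricted to muscle (ENSRNOG00000054890, chromosome X, 156463953 to 156487245, plus strand). It stood at 6.13, 14.9, 4.63, 5.62 and 4.95 FPKM in aged replicates 1 to 5, and at 2.23, 2.17, 3.30, 2.30 and 4.28 FPKM in young replicates 1 to 5. The lowest aged and the highest young library were close, at a ratio of 1.08. The log2 difference was 1.01 (SE 0.27, limma adjusted p = 0.319).

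A single library carried much of the aged mean and of its spread. Aged replicate 2 was the highest aged library for 9 members, at 1.496 times the mean of the other aged libraries for Myh11 and up to 2.96 times for Des, but at 1.09 times for Actg2. The summed level of the 10 members was 254 FPKM in aged replicate 2 and 109 to 134 FPKM in the other aged libraries, against 68.6 to 104 FPKM in the young libraries. Without aged replicate 2 the ratio of the means was 1.44 for Acta2, 2.35 for Csrp1, 2.18 for Tpm2 and 1.99 for Des, and 9 members were still higher at an unadjusted p under 0.05, where 4.71% of all tested genes were. Without aged replicates 1 and 2 the median log2 difference was 0.63, and again 9 members were higher at an unadjusted p under 0.05, where 3.69% of all tested genes were. Among the young libraries the order was shared too: young replicate 5 was the highest for 8 members and young replicate 2 the lowest for 8. In the aged group replicate 3 was the lowest for 7 members.

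**Figure D2:**
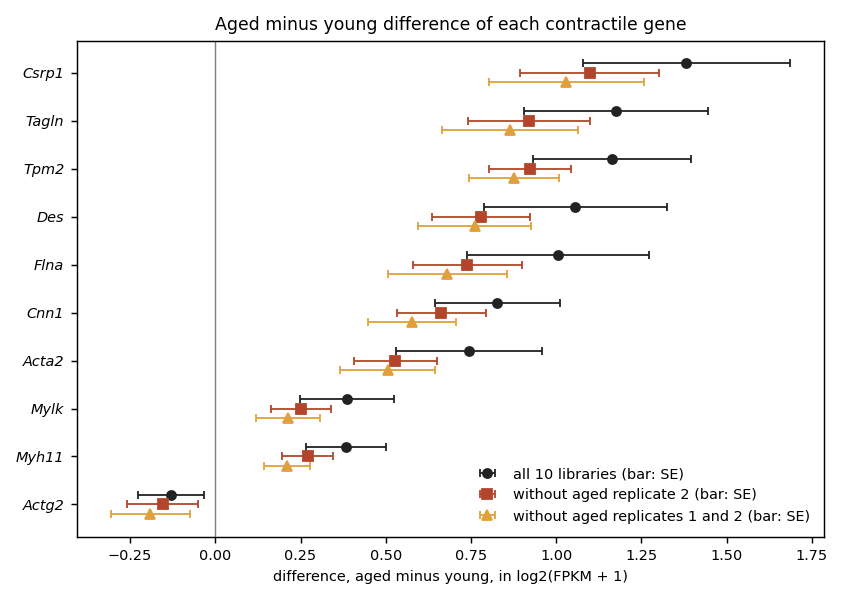
Difference between aged and young samples in log2(FPKM + 1) for each contractile gene, with all 10 libraries (circles), without aged replicate 2 (squares) and without aged replicates 1 and 2 (triangles); bars are standard errors from limma. The 9 genes to the right of 0 stay there in the smaller sets, with smaller differences, and Actg2 stays to the left.

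The order of the levels differed between the groups, as the members did not all differ by the same factor. In young samples Acta2 (28.6 ± 5.73 FPKM) and Myh11 (21.8 ± 1.62 FPKM) were highest, followed by Actg2 (7.24 ± 0.906 FPKM), Tagln (6.62 ± 1.89 FPKM), Mylk (5.76 ± 0.684 FPKM), Csrp1 (3.98 ± 1.505 FPKM), Tpm2 (2.98 ± 0.613 FPKM), Flna (2.86 ± 0.920 FPKM), Des (2.32 ± 0.678 FPKM) and Cnn1 (0.618 ± 0.197 FPKM). Among these, Actg2 and Tagln, Tagln and Mylk, Csrp1 and Tpm2, Tpm2 and Flna, and Flna and Des did not differ by more than the larger of their SDs. In aged samples Actg2 (6.53 ± 0.783 FPKM) stood below Tagln (17.2 ± 9.06 FPKM), Csrp1 (12.8 ± 7.77 FPKM), Tpm2 (8.47 ± 4.43 FPKM), Mylk (7.97 ± 2.16 FPKM) and Flna (7.24 ± 4.30 FPKM). Flna was above Actg2 in 1 of 5 aged libraries, replicate 2; over the other aged libraries Flna averaged 5.33 FPKM and Actg2 6.41 FPKM. Actg2 was next to Des (6.43 ± 4.07 FPKM), and Cnn1 (1.95 ± 0.923 FPKM) was again the lowest. From Tagln down to Des no pair of neighbours in the aged order differed by more than the larger of their SDs.

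Set against Acta2 in the same library, most members were more abundant in the aged libraries. The ratio to Acta2 averaged 0.241 ± 0.040 in aged and 0.136 ± 0.027 in young libraries for Csrp1, and 0.163 ± 0.015 in aged and 0.104 ± 0.00570 in young libraries for Tpm2 (SD, n = 5 each). For 5 of the 9 members so compared, Csrp1, Tpm2, Tagln, Des and Flna, every aged ratio was above every young ratio. For Actg2 alone every aged ratio was below every young one, at 0.141 ± 0.039 in aged and 0.257 ± 0.034 in young libraries. The ratios overlapped for Cnn1, Mylk and Myh11, which was at 0.605 ± 0.103 in aged and 0.775 ± 0.096 in young libraries. These ratios share Acta2 and are given as a description.

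**Figure D3:**
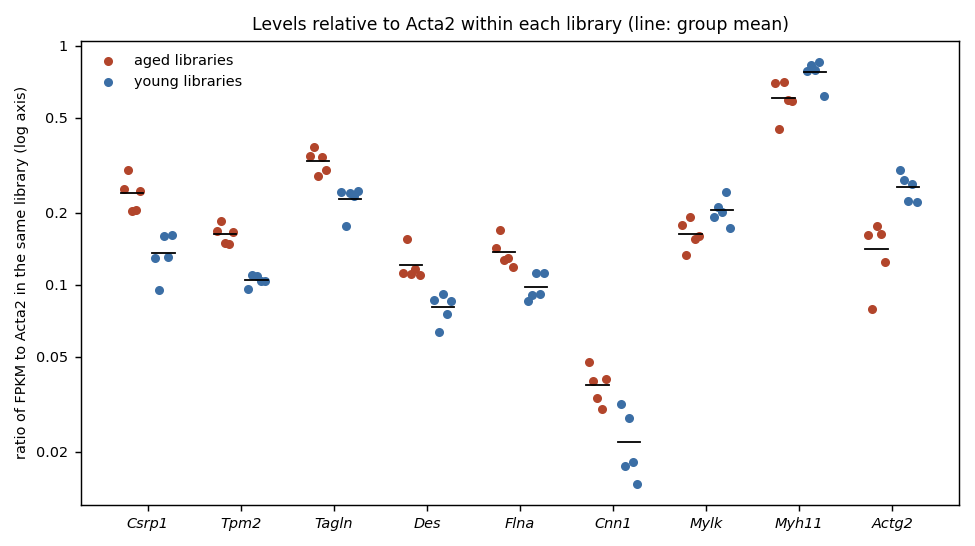
FPKM of each of 9 contractile genes divided by that of Acta2 in the same library, on a log axis, for aged (left of each pair) and young (right) libraries; lines are group means. Csrp1, Tpm2, Tagln, Des and Flna have aged ratios above all young ratios, and Actg2 has aged ratios below all young ratios.

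The rest of the contractile apparatus was read from a list of 26 further genes, 16 of which were tested. None passed; 15 were higher and 1 lower. Their median log2 difference was 0.31, and 6 were higher at an unadjusted p under 0.05 (5.54% of all tested genes). Myl9, the regulatory light chain that Mylk phosphorylates, averaged 22.7 ± 14.6 FPKM in aged and 7.30 ± 1.92 FPKM in young samples (SD, n = 5 each), and 16.3 FPKM in aged samples without replicate 2. Tpm1, another tropomyosin, averaged 4.27 ± 2.51 FPKM in aged and 1.70 ± 0.392 FPKM in young samples. Actn1, the cross-linker alpha-actinin, averaged 1.70 ± 0.862 FPKM in aged and 0.672 ± 0.131 FPKM in young samples. For these 3 genes the groups did not overlap, with aged higher, as for 5 of the 16 and for 1.36% of all tested genes. But Actn1, 1 of the 6, was under 1 FPKM in every young library and entered the test through its aged values. Without the 3 genes that entered in this way, Actn1, Synpo2 and Pdlim7, 5 of 13 were higher at an unadjusted p under 0.05. Over all tested genes without those that entered in this way it was 4.78%. Myl6b, an essential light chain of myosin, averaged 30.3 ± 2.79 FPKM in aged and 31.5 ± 2.03 FPKM in young samples.

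Genes that signal to the contractile apparatus had a median log2 difference of 0.04 over 19 tested genes of 36 listed. None passed. A log2 difference above 0 was found for 15 of them (45.5% of all tested genes), and 2 were higher at an unadjusted p under 0.05 (5.54% of all tested genes). Pln, phospholamban, which holds back the calcium pump of muscle, averaged 5.03 ± 1.88 FPKM in aged and 2.74 ± 0.305 FPKM in young samples. Arhgef25, an activator of the GTPase RhoA, averaged 1.54 ± 0.290 FPKM in aged and 0.865 ± 0.251 FPKM in young samples. It entered the test through its aged values, and without it 1 of 18 was higher at an unadjusted p under 0.05. Over all tested genes without those that entered in this way it was 4.78%. Rhoa itself averaged 37.5 ± 2.92 FPKM in aged and 34.6 ± 2.09 FPKM in young samples. Ednra, the receptor for endothelin, a peptide that contracts myoid cells, averaged 5.34 ± 0.288 FPKM in aged and 4.96 ± 0.252 FPKM in young samples. Adra1a, an adrenergic receptor, averaged 1.72 ± 0.285 FPKM in aged and 1.76 ± 0.314 FPKM in young samples, a log2 difference of -0.02 that turned positive without aged replicate 2 or 5 or young replicate 3 or 5 and with voom.

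Of 12 listed regulators of smooth muscle genes 4 were tested, and none passed. Srf, serum response factor, averaged 21.9 ± 1.82 FPKM in aged and 22.2 ± 1.91 FPKM in young samples; its log2 difference of -0.02 turned positive with voom, without young replicate 4 and without aged replicates 1 and 2. Mkl1, a myocardin-related partner of Srf, averaged 19.3 ± 1.65 FPKM in aged and 20.1 ± 2.06 FPKM in young samples. Klf4, which opposes the contractile programme in cultured smooth muscle and is itself a spermatid gene, averaged 87.5 ± 4.17 FPKM in aged and 76.8 ± 7.33 FPKM in young samples, at an unadjusted p of 0.0147 and an adjusted p of 0.354 by limma. Nr2f2, a transcription factor of stromal and Leydig lineage cells, averaged 2.81 ± 1.64 FPKM in aged and 1.65 ± 0.336 FPKM in young samples. Myocd itself was below the filter.

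Of 23 listed paralogs of the members, 12 were tested and none passed; 7 were higher and 5 lower. Their median log2 difference was 0.25, 6 were higher at an unadjusted p under 0.05 (5.54% of all tested genes) and 0 were lower at that level (6.35%). Csrp2, 1 of the 6, entered the test through its aged values. Without it 5 of 11 were higher at an unadjusted p under 0.05 and the median was 0.0098. Over all tested genes without those that entered in this way 4.78% were higher at that level. Vim, the intermediate filament of mesenchymal cells, averaged 19.1 ± 11.5 FPKM in aged and 7.14 ± 1.62 FPKM in young samples. Tagln2, the transgelin of non-muscle cells, averaged 4.41 ± 2.32 FPKM in aged and 1.75 ± 0.243 FPKM in young samples. Acta1, skeletal muscle actin, averaged 1.30 ± 0.317 FPKM in aged and 1.77 ± 0.540 FPKM in young samples. Actb, cytoplasmic beta actin, averaged 567 ± 26.0 FPKM in aged and 564 ± 31.3 FPKM in young samples. Its log2 difference of 0.0098 turned negative without aged replicate 2 and without young replicate 2 or 4. Tpm1 is counted in this list too, and Myh9 and Tagln3 were listed at 0 in every library.

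The sums of the Leydig cell and pericyte marker lists, like that of the contractile genes, were above the young range in every aged library. Those of the matrix, Sertoli cell, macrophage and endothelial lists were above it in some aged libraries and not in others. The 18 matrix and stromal genes summed to 35.1 to 179 FPKM in the aged and 24.0 to 37.9 FPKM in the young libraries. Of 12 tested, 11 were higher (median log2 difference 0.38). Over all tested genes 45.5% were higher, the share to set beside each list here. The 11 pericyte and vascular smooth muscle genes summed to 13.7 to 37.5 FPKM in the aged and 10.2 to 12.8 FPKM in the young libraries, and all 4 tested were higher. For 2 of these 4, Pln and Mcam, every aged library was above every young library, as for 1.36% of all tested genes. The 10 Leydig cell genes summed to 12.1 to 129 FPKM in the aged and 6.14 to 9.94 FPKM in the young libraries, and all 4 tested were higher. For 2 of these 4, Insl3 and Cyp17a1, every aged library was above every young library too. Insl3 averaged 29.7 ± 34.2 FPKM in aged and 3.31 ± 0.754 FPKM in young samples, and 15.5 FPKM in aged samples without replicate 2. Cyp17a1 averaged 9.27 ± 9.95 FPKM in aged and 0.832 ± 0.392 FPKM in young samples, and entered the test through its aged values. The 12 Sertoli cell genes found summed to 23.3 to 108 FPKM in the aged and 24.4 to 30.9 FPKM in the young libraries, with 5 of 6 tested higher. The 12 macrophage genes summed to 156 to 253 FPKM in the aged and 144 to 197 FPKM in the young libraries, most of it Aif1 (mean 146 FPKM in aged and 143 FPKM in young samples), with 10 of 11 tested higher. The 9 endothelial genes found summed to 8.03 to 12.7 FPKM in the aged and 6.40 to 8.12 FPKM in the young libraries, with 1 of 3 tested higher and Cldn5 at 0 throughout. No gene of these 6 lists passed, and 15 of their 40 tested genes entered the test through their aged values, 7 of them macrophage genes. Without those genes the median log2 difference was 0.26 for the matrix, 0.65 for the pericyte and 1.09 for the Leydig cell list. It was 0.35 for the Sertoli cell, 0.12 for the macrophage and -0.011 for the endothelial list. Then 3 of 9 matrix, 3 of 3 pericyte and 1 of 2 Leydig cell genes were higher at an unadjusted p under 0.05 by limma. In the Sertoli cell, macrophage and endothelial lists 0 of 5, 0 of 4 and 0 of 2 were, and over all remaining tested genes 4.78% were. These counts cover only markers that averaged 1 FPKM or more in young samples. They say nothing about the markers left out, and so do not settle whether a cell type differed. The 10 spermatocyte genes summed to 344 to 428 FPKM in the aged and 380 to 468 FPKM in the young libraries. All 10 were lower (median log2 difference -0.19), none of them passing. At an unadjusted p under 0.05 by limma 2 of the 10 were lower, where 6.35% of all tested genes were. Without aged replicates 1 and 2 the median log2 difference was 0.085 for the matrix, 0.33 for the pericyte, 0.60 for the Leydig cell, 0.049 for the Sertoli cell and 0.28 for the macrophage list, against 0.38, 0.59, 1.19, 0.37 and 0.88 with all libraries. It was -0.087 for the spermatocyte list, and -0.019 for the endothelial list against -0.0051 with all libraries. These medians include the genes that entered through their aged values.

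Aged replicate 2 had the highest sum for each of the 6 lists of non-germ cells. Aged replicate 1 had the next highest aged sum for each of these lists, at 57.4 FPKM for the Leydig cell list. It also had the next highest aged sum for the contractile genes, at 134 FPKM, close to aged replicate 4 at 125 FPKM. In aged replicate 3 the matrix sum of 35.1 FPKM, the macrophage sum of 168 FPKM and the endothelial sum of 8.03 FPKM lay within the range of the young libraries, and the Sertoli cell sum of 23.3 FPKM lay below it. Such sums rest on their most abundant genes. Of the tested genes in these lists, Sparc (lowest aged 7.94 FPKM, highest young 6.85 FPKM) and Vwf (1.28 and 0.910 FPKM) were above every young library in every aged library. The other tested genes overlapped. Below the filter Fn1, Cxcl12, Cdh5 and Kdr did not overlap either, with aged higher. In aged replicate 3 8 contractile genes were above every young library. The pericyte sum of 13.7 FPKM and the Leydig cell sum of 12.1 FPKM were above the young range. Among aged libraries, replicate 3 had the lowest sum for the contractile genes, at 109 FPKM. It also had the lowest aged sum for each of these lists except the macrophage list, where aged replicate 4 was lowest at 156 FPKM. Young replicate 5, highest among young libraries for 8 members, also had the highest young sums for matrix, pericyte, Leydig cell and macrophage genes. The part of other cells in the contractile gene differences was not tested. In these bulk libraries more cells of a type and more RNA per cell cannot be told apart.

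**Figure D4:**
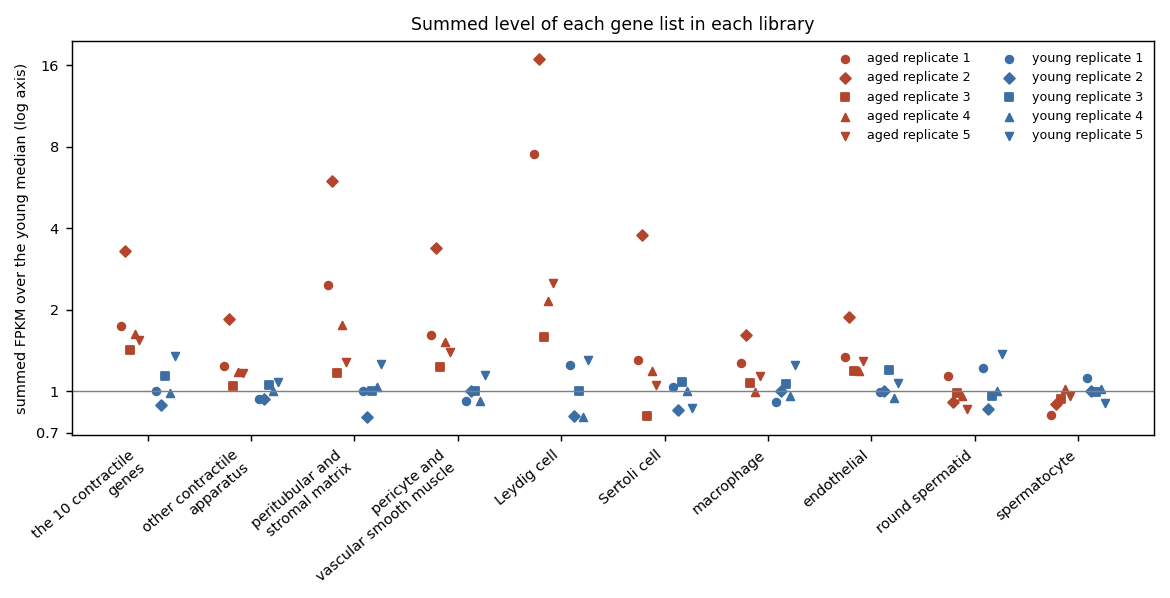
Summed FPKM of each gene list in each library divided by the median of the 5 young libraries, on a log axis, with aged libraries left and young libraries right in each pair and a marker shape for each replicate. Aged replicate 2 stands highest for every list of non-germ cells. The sums of the contractile genes, the pericyte genes and the Leydig cell genes are above the young range in all 5 aged libraries.

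The patterns of genes other than the members were then set against that of the members over the 10 libraries. Likeness was Pearson's r between a gene's log2(FPKM + 1) and the mean z-score of the 10 members, ranked over the 7815 other genes that averaged 5 FPKM or more, and is given as a description. The nearest were Sparcl1 (r = 0.987), Sparc (0.985), Igfbp7 (0.982), Apoe (0.978), Zfp36 (0.977), Fos (0.976), Vim (0.973), Ctsb (0.971), Gapdh (0.970) and B2m (0.970). Without aged replicate 2 their r was 0.979 for Sparcl1, 0.964 for Sparc and 0.923 for Ctsb, the lowest. Spearman's rho ranged between 0.879 (Ctsb) and 0.988 (Sparc, Zfp36 and B2m). Sparc and Sparcl1, matrix proteins that bind collagen, averaged 15.1 ± 11.1 and 12.6 ± 8.44 FPKM in aged samples, against 5.49 ± 0.921 and 5.34 ± 0.935 FPKM in young samples. For 4 of these genes, Sparcl1, Sparc, Vim and B2m, every aged library was above every young library, as for 1.36% of all tested genes. The members' score was 0.06 to 1.99 in aged and -1.09 to -0.03 in young libraries. Higher aged levels of genes picked for following it therefore follow from the choice and are no separate result. B2m, the light chain of MHC class I, averaged 22.5 ± 25.2 FPKM in aged and 2.69 ± 1.27 FPKM in young samples, and 11.8 FPKM in aged samples without replicate 2. Fos averaged 19.9 ± 18.5 FPKM in aged and 6.47 ± 2.36 FPKM in young samples, with overlap, and 11.75 FPKM in aged samples without replicate 2. Against the mean z-score of the other 9 members, r over the 10 libraries was between 0.911 (Cnn1) and 0.990 (Flna) for 9 members and -0.09 for Actg2. Without aged replicate 2 it was between 0.808 (Cnn1) and 0.978 (Tagln) for these 9 and -0.23 for Actg2.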

How the data were processed

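RNA of round spermatids was sequenced in 5 aged and 5 young samples. The authors deposited 1 table of FPKM values per sample with gene names, positions and lengths, per the file headers; HISAT2 2.0.5 and featureCounts 1.5.0-p3 are named in the submitters' processing notes, and their settings, strand handling and build are not given there. Whole fragments were recovered from FPKM, gene length and the value of 1 fragment per sample; 100% of values came out whole within 0.001. Levels were tested with limma 3.58.1 in R 4.3.3 (lmFit and trended eBayes) on log2(FPKM + 1) for genes averaging 1 FPKM or more, adjusted by Benjamini-Hochberg; this scale understates changes of low genes. The test was checked on simulated data. The tool for count tables was not run because the deposited unit is FPKM; voom on recovered fragments was an alternative. All members were named; of the 4 lists of related genes, the first 2 tested genes and the 3 with the smallest unadjusted p were named, and the nearest genes by likeness. The marker lists are given mainly by counts and sums, and the genes named there were named after their values were seen. The members and lists were chosen with earlier results of these data known. Some listed symbols were not found under that name in the files (Myl6, Mrtfa, Mrtfb and Mkl2 among them). Promoter sequences are those of RefSeq on GRCr8; the files' coordinates were not converted.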

Additional observations from a re-analysis of the deposited data

Results flagged for a closer look

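A gap test took each group of 5 libraries (72 groups) for the members, genes named from the related lists and the nearest genes by likeness. It divides the gap between an extreme library and its neighbour by the range of the group and compares this with Dixon's critical value of 0.71, which about 1 in 20 groups would pass without any real outlier. It marked 20 groups, all aged. Aged replicate 2 was the high library for 7 contractile genes: Des (0.898, at 13.7 FPKM against 4.05 to 5.03 in the other aged libraries), Acta2 (0.868), Flna (0.853), Tpm2 (0.836), Csrp1 (0.822), Tagln (0.802) and Mylk (0.798). Myh11, Cnn1 and Actg2 were not marked, and no young library was marked for any member. The same library was high for the contractile relatives Actn1 (0.858), Pln (0.857), Tpm1 (0.850) and Myl9 (0.749), and for the genes with the nearest patterns, Sparcl1 (0.874), Vim (0.866), Sparc (0.816), Zfp36 (0.789), Fos (0.778), Ctsb (0.735), Apoe (0.733) and Igfbp7 (0.730). The genes with the nearest patterns were picked for following the members' score, which was 1.99 in aged replicate 2 and 0.60 in aged replicate 1, the next highest. Their marks follow from that choice and are not a separate result. Srf was marked for aged replicate 3 (0.976), at 25.2 FPKM against 21.0 to 21.1 in the other aged libraries.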

How the results depend on the processing

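Over 19 alternatives, all 188 values of the members kept their direction, and none had an adjusted p under 0.05 by limma. In each, 9 members, or 7 of the 8 with a mean of at least 5 FPKM, had an unadjusted p under 0.05. Median-of-ratios scaling could hardly differ from the main setting, as it divided every library by the same factor (1.002). Over the alternatives that allow it, 6 to 9 members did not overlap between the groups. The median log2 difference of the members lay between 0.63 and 1.29. The number of genes called over all genes was 0 except without young replicate 1 or 2, so it ranged from 0 to 1 when single libraries were left out. The number at an unadjusted p under 0.05 was 2379 with no filter on low values, 887 with a mean of at least 5 FPKM, 972 without aged replicates 1 and 2, and 1155 to 2183 when single libraries were left out; the filters change how many genes are tested. Of these genes 46.6% were higher in the deposited scaling, 61.0% with TPM scaling and 62.8% with voom, while 9 members were higher in each. No pairing by the numbers in the titles was visible: the deviations of same-numbered libraries correlated at -0.16 to 0.05. This cannot show whether samples were prepared in pairs, which the labels do not say. With a replicate block 1255 genes and 9 members had an unadjusted p under 0.05. Among other genes, the sign of Adra1a turned with voom (0.0080) and ranged from -0.076 to 0.032 over single left-out libraries. Srf turned with voom (0.0041) and without aged replicates 1 and 2 (0.014) and ranged from -0.067 to 0.028, and Actb ranged from -0.014 to 0.043; the cause was not tested. Depth limits Cnn1 most, with 11 fragments in its lowest library.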
